A study of Mus musculus with 15 samples.

Results

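The 3 libraries of fresh embryonic mouse lung at E14.5 (embryonic day) were compared with the 3 libraries at E12.5, 6 of the 15 samples of the series, over every gene of the count table. All lungs were from wild-type CD1 mice, an outbred stock, and were taken from the pregnant mother and extracted without culture. Each E12.5 library was made from a pool of 6 lungs and each E14.5 library from a pool of 3, so pool size and stage cannot be told apart. The comparison asks how the whole-lung transcriptome changes over the 2 days that the cultured lungs of the same series spend under low or high pressure. The 3 fresh E13.5 libraries, also pools of 3, share the model and split the interval into its first and second day.

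During these days the mouse lung is in its pseudoglandular stage. The epithelium, a branching tube marked by Nkx2-1, grows into a loose mesenchyme that also forms airway smooth muscle, vessels, cartilage and the mesothelium on the surface. Alveolar cells become recognisable later, and RNA of a whole lung mixes all these cell types. In such bulk samples a gain of cells of a type and more RNA per cell cannot be told apart.

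The libraries held 18837343 to 21955244 counts each over the 3 stages. Levels are given as CPM (counts scaled to the same total with edgeR's effective library sizes), listed for replicates 1, 2 and 3 in that order. Replicate 1 of every stage stood apart from replicates 2 and 3: ribosomal protein genes took 3.57, 2.22 and 2.05% of the counts at E12.5 and 4.34, 1.87 and 1.89% at E14.5. For this reason the replicate number entered the model as a block. Same-numbered libraries deviated from their stage means together, but replicates 2 and 3 did so across numbers as well. Among defining markers summed per library, those of lung epithelium held 421 to 576 CPM at E12.5 and 373 to 766 CPM at E14.5, so the labelled tissue was present at both stages. Liver markers stayed between 1.15 and 5.61 CPM in the 6 libraries.

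Of 14242 genes tested, 1561 (11.0%) differed between E12.5 and E14.5 at an adjusted p under 0.05 in edgeR's quasi-likelihood test with Benjamini-Hochberg adjustment. Of these, 1044 genes (7.33% of those tested) rose and 517 (3.63%) fell, and every one of the 1561 moved in the same direction in all 3 numbered pairs. A model with the number as block favours genes with such agreement, so it is not separate support for the calls. The median change of the called genes was 0.600 on the log2 scale in size; 340 genes rose and 94 fell by at least 1 on that scale. The stages did not overlap in 892 of the called genes and in 2007 (14.1%) of all genes tested. Without the replicate block no gene was called by edgeR (1328 genes had an unadjusted p under 0.05) or by limma-voom, and DESeq2 called 491. With a term for replicate 1 alone in place of the block edgeR called 1592 genes, 1445 of them among the 1561. Leaving out E12.5 replicate 2 left 435 calls, E12.5 replicate 3 left 869, E14.5 replicate 1 left 954, E14.5 replicate 2 left 755 and E14.5 replicate 3 left 636, and 313 genes were called whichever of the 6 libraries was absent. No called gene changed sign under any of these settings. The share of calls that were rises was 66.9%, 56.0% with median-of-ratios size factors and 37.5% with offsets for GC content and gene length, where the median of all genes lay at -0.0775 in place of -0.00336.

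**Figure D1:**
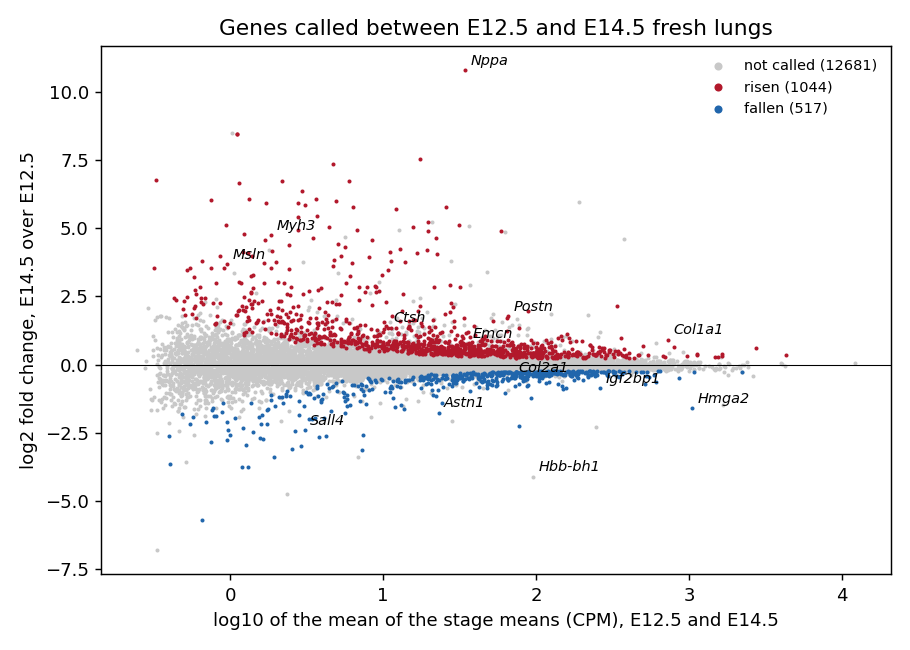
Log2 fold change of each of the 14242 genes tested (E14.5 over E12.5, vertical axis) against the log10 of its mean level in CPM (horizontal axis), with genes that rose in red, genes that fell in blue and the others in grey. Most rises above 4 on the log2 scale belong to genes of low level, and Hmga2 is labelled among the fallen genes.

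Most calls of a single day came on the second day. Between E12.5 and E13.5 edgeR called 1 gene, and between E13.5 and E14.5 it called 856, of which 591 rose and 265 fell. The 1044 genes that rose over the 2 days had a median log2 change of 0.14 on the first day and 0.55 on the second, and the 517 that fell had medians of -0.09 and -0.35. A direct test of the second day minus the first passed for 3 genes (0.0211%), so for single genes an uneven course was rarely shown.

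As a group the early embryonic timing genes fell: 11 of 13 tested fell and none rose, against 3.63% of all genes that fell. With each library left out in turn 4 to 11 of the 13 fell, and the 4 were found without E14.5 replicate 3. These genes keep embryonic cells in an early state: Hmga2 codes for a chromatin protein of proliferating embryonic cells, Lin28a and Lin28b for RNA-binding proteins that block maturation of the let-7 microRNAs, Igf2bp1 to Igf2bp3 for proteins that bind and stabilise messenger RNAs, Trim71 for an RNA-binding ubiquitin ligase and classic let-7 target, and Sall4 for a zinc finger factor of pluripotent cells. Let-7 microRNAs accumulate as tissues mature and pair through bases 2 to 8, the seed, with sites in the 3′ untranslated region (3′ UTR) of such messengers. The median log2 change of the 13 genes was -0.62, where that of all genes was -0.00336.

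Sequences of the let-7 family are shown because its seed match is what most of these falling messengers share. The 9 let-7 and miR-98 5p microRNAs in the RefSeq table (GRCm38.p6) carry the same seed, in capitals here for let-7a (chr13:48538239-48538260, minus strand), let-7g (chr9:106178846-106178867, plus strand) and let-7i (chr10:122985698-122985719, minus strand).
mmu-let-7a-5p: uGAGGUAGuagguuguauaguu
mmu-let-7g-5p: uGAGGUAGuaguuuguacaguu
mmu-let-7i-5p: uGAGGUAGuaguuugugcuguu
The reverse complement of the seed, CTACCTC in DNA letters, was searched on the transcribed strand of the longest annotated 3′ UTR of each gene. Windows around the first match in 6 of the timing genes follow, with the match in capitals.
Hmga2: gacattcaatttCTACCTCagc
Lin28b: cgggcgggaagtCTACCTCatg
Lin28a: cagcctgttgaaCTACCTCatt
Igf2bp1: gtgcgaagtaaaCTACCTCaag
Trim71: attgcctaagtcCTACCTCagc
Arid3a: gcaagtttctttCTACCTCagg
Hmga2, Lin28b, Igf2bp1 and Trim71 held 4 matches each, Lin28a and Arid3a 2, and Igf2bp2, Igf2bp3, Arid3b, Sall4 and Hmga1 1, while Mycn and Plagl1 held none. A match is a description of the letters and does not show that a microRNA acted there, and the let-7 microRNAs themselves were not measured.

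Hmga2 (chr10:120361275-120476469, minus strand) measured 499.6, 1458 and 2879 CPM at E12.5 and 224, 460.2 and 763 CPM at E14.5. The stages overlapped, with E12.5 replicate 1 below E14.5 replicate 3, but every pair fell (log2 fold change -1.60, SE 0.23, adjusted p = 0.015). Lin28b (chr10:45376620-45486395, minus strand) measured 10.6, 34.9 and 63.7 CPM at E12.5 and 6.61, 13.3 and 16.3 CPM at E14.5, with the same order of replicates (log2 fold change -1.42, SE 0.25, adjusted p = 0.0153). Its paralogue Lin28a was scarce, at 0.289, 2.44 and 6.01 CPM at E12.5 and 0.25, 0.315 and 0.486 CPM at E14.5, and the stages overlapped, with E12.5 replicate 1 as low as the E14.5 libraries (log2 change -2.75, adjusted p = 0.0226). Both Lin28 genes and Hmga2 were lowest in replicate 1 at every stage.

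Igf2bp1 (chr11:95957163-96005940, minus strand) measured 234, 322 and 459.8 CPM at E12.5 and 131, 204 and 213 CPM at E14.5 (log2 fold change -0.87, SE 0.10, adjusted p = 0.000884). Its stages did not overlap. Igf2bp2 measured 271, 190.1 and 187 CPM at E12.5 and 199.7, 133 and 135 CPM at E14.5 (log2 fold change -0.48, SE 0.07, adjusted p = 0.00324). Igf2bp3 fell by 0.39 on the log2 scale (adjusted p = 0.00922). All members of this family thus fell, with replicate 1 lowest for Igf2bp1 and highest for Igf2bp2 at both stages. Sall4 went from 3.52, 4.56 and 7.57 CPM to 0.851, 0.682 and 1.35 CPM and did not overlap (log2 fold change -2.40, SE 0.28, adjusted p = 0.000951). Arid3a, an AT-rich DNA-binding factor, measured 37, 32.4 and 37.3 CPM at E12.5 and 25.9, 21 and 23.5 CPM at E14.5 (log2 fold change -0.60, SE 0.10, adjusted p = 0.00567). Trim71 overlapped between stages at 9.34, 15.9 and 22.8 CPM at E12.5 and 7.66, 9.86 and 12.6 CPM at E14.5 (log2 change -0.62, adjusted p = 0.0278). Mycn, the MYC family member of the distal lung epithelium, fell without a seed match in its annotated 3′ UTR, from 63.5 ± 24.7 CPM to 41 ± 9.99 CPM (SD, n = 3; log2 change -0.59, adjusted p = 0.00939). Plagl1, an imprinted zinc finger transcription factor gene, measured 1284 ± 29.6 and 1253 ± 169 CPM and did not pass (log2 change -0.05, adjusted p = 0.756), nor did Hmga1 (log2 change -0.52, adjusted p = 0.33). Igf2bp1, Igf2bp2, Arid3a and Sall4 were called whichever single library was left out; the other 7 fallen members were all lost without E14.5 replicate 3. Igf2bp3 and Mycn were lost in that case only, while Hmga2 and Lin28b were also lost without replicate 2 of either stage. Lin28a and Trim71 were lost in 4 of the 6 cases and Arid3b in 3.

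**Figure D2:**
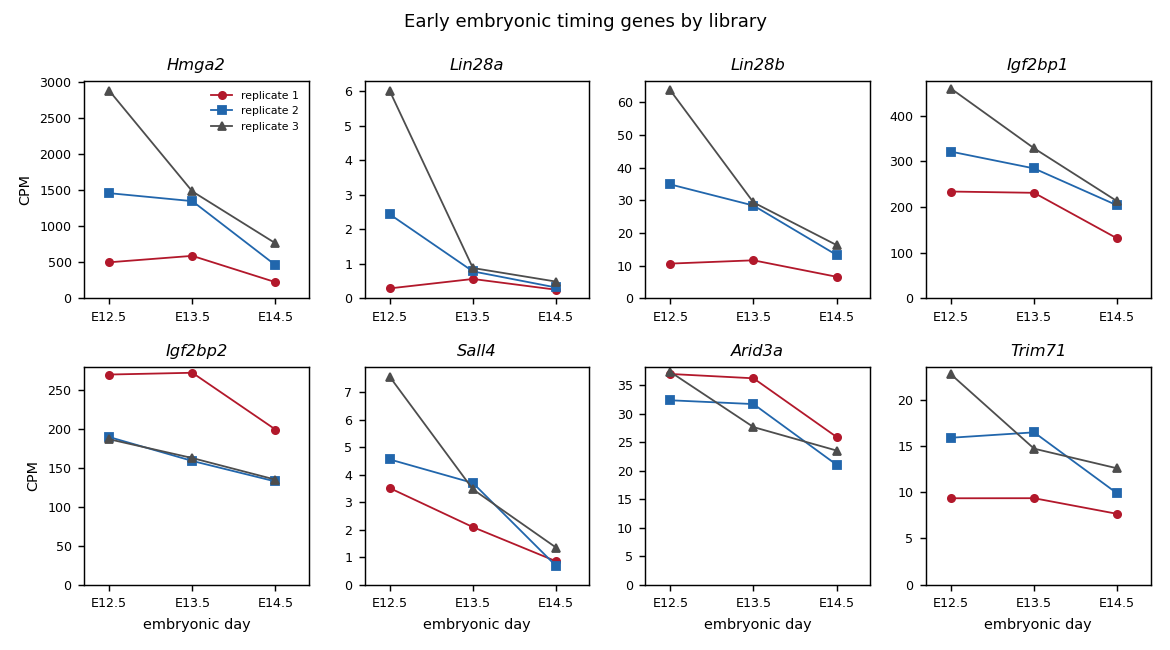
Level in CPM (vertical axes from 0) of 8 timing genes by stage (E12.5, E13.5, E14.5), with 1 line for each replicate number. Every line ends lower at E14.5 than it starts at E12.5, and replicate 1 is lowest throughout for Hmga2, Lin28b and Igf2bp1 but highest throughout for Igf2bp2.

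The seed match was also counted over all genes. Of 13592 tested genes with an annotated 3′ UTR, 1446 (10.6%) held at least 1 match, against 11 of the 13 timing genes (84.6%). The timing list was written with earlier results of these data known and includes let-7 targets such as Trim71. Its share of matches is therefore partly set by the choice of members. Of the genes that fell 22.4% held a match, and of those that rose 11.5%. Read the other way, 7.81% of genes with a match fell and 3.22% of genes without; with 2 or more matches it was 21 of 185 (11.4%) and with 3 or more 5 of 28 (17.9%), of which Hmga2, Lin28b, Igf2bp1 and Trim71 are timing genes and the other is Hic2, which codes for a transcriptional repressor. Genes with a match have longer 3′ UTRs, with a median of 2399.5 against 1110 bases. Among 3′ UTRs of 2000 to 4000 bases the shares that fell were 8.71% of 505 genes with a match and 3.77% of 2517 without, and leaving the timing list out of the genes with a match gave 7.18% of 1435. Rises differed less, at 8.23% with and 7.56% without a match. Lin28a and Arid3a, with 2 matches each, are also timing genes among the 21. Without the timing list the shares at 2 or more and 3 or more matches were not computed, but Hic2 alone would remain fallen at 3 or more. The high share at 3 or more therefore rests on the timing genes and shows no trend with match number outside them. All these shares are counts with no test.

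**Figure D3:**
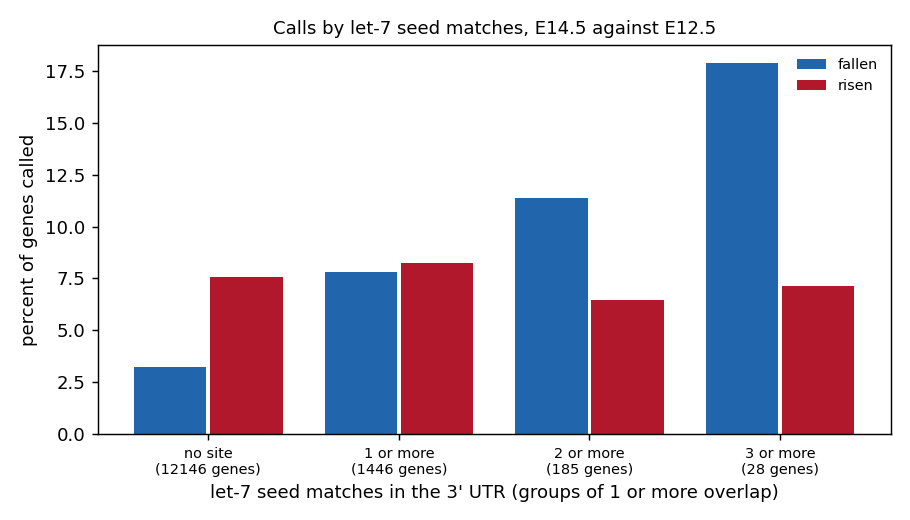
Percent of genes that fell (blue) and rose (red) between E12.5 and E14.5, by the number of let-7 seed matches in the annotated 3′ UTR. The fallen share goes from 3.22% without a match to 17.9% at 3 or more, a group of 28 genes. The timing list is included, and of the genes that fell at 3 or more only Hic2 is outside it, so the high share there rests on the timing genes.

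Several matrix genes rose. Of 22 tested genes of fibrillar collagens and matrix glycoproteins, 9 rose and 1 fell (median log2 change 0.75), and of 18 elastic fibre and crosslinking genes 6 rose and none fell (median 0.45). With each library left out in turn 5 to 14 and 4 to 8 rose, the low ends without E12.5 replicate 2. The fibrillar list took 0.773% ± 0.122 of the counts at E12.5 and 1.08% ± 0.0716 at E14.5 (SD, n = 3), a difference for which the exact two-sided permutation test gave p = 0.1, the smallest that 3 against 3 allows. Postn, which codes for the matricellular protein periostin, measured 36.6, 28.5 and 25.1 CPM at E12.5 and 106, 114 and 83.1 CPM at E14.5 (log2 fold change 1.76, SE 0.12, adjusted p = 0.000102). Its log2 change on the first day was 0.16 and did not pass, and the second day passed by itself (adjusted p = 0.000277). Bgn, the proteoglycan biglycan, measured 222, 209 and 175 CPM at E12.5 and 365, 327 and 251 CPM at E14.5 (log2 fold change 0.63, SE 0.08, adjusted p = 0.00168). Sparc, a collagen-binding glycoprotein, measured 767, 608 and 502 CPM at E12.5 and 1122, 999.6 and 792 CPM at E14.5 and did not overlap (log2 fold change 0.64, SE 0.08, adjusted p = 0.00175). Col3a1, the fibrillar collagen of distensible tissues, was among the 5 most abundant genes that rose, at 1692, 2568 and 2224 CPM at E12.5 and 2106, 3884 and 4031 CPM at E14.5 (log2 fold change 0.59, SE 0.09, adjusted p = 0.00343). Vcan, the large proteoglycan versican of early embryonic matrix, was the member that fell, from 601 ± 104 to 450.0 ± 83.7 CPM (log2 change -0.42, adjusted p = 0.00483).

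Lox, the lysyl oxidase that crosslinks collagen and elastin, measured 144, 152 and 133 CPM at E12.5 and 238, 277 and 262 CPM at E14.5 (log2 fold change 0.86, SE 0.09, adjusted p = 0.000594). The libraries were tight within each stage and far apart between them. Fbln5, which helps to assemble elastic fibres, measured 19.2, 18.9 and 11.8 CPM at E12.5 and 41.8, 45 and 30.6 CPM at E14.5 (log2 fold change 1.24, SE 0.16, adjusted p = 0.00241). Fbln2 measured 45.3, 28.3 and 20 CPM at E12.5 and 71.3, 61 and 42.5 CPM at E14.5 with E12.5 replicate 1 above E14.5 replicate 3 (log2 change 0.95, adjusted p = 0.00433). Ltbp2, a microfibril protein, rose from low levels of 3.23, 2.08 and 0.651 CPM to 8.86, 4.35 and 3.29 CPM (log2 change 1.51, adjusted p = 0.00957). Eln itself, the elastin gene, was higher in every pair, at 98.8, 45.8 and 16.8 CPM at E12.5 and 186, 107 and 70.1 CPM at E14.5, but spread widely within each stage and did not pass (log2 change 1.31, adjusted p = 0.083). Egfl6, a matrix protein of the epidermal growth factor repeat family, measured 21.1, 21.4 and 24.8 CPM at E12.5 and 41.8, 45.6 and 45.8 CPM at E14.5 (log2 fold change 0.99, SE 0.09, adjusted p = 0.000331).

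Basement membrane genes, which code for the sheet under epithelium and endothelium, rose in 8 of 25 cases and fell in 1 (median log2 change 0.54). Npnt, nephronectin, an integrin ligand of developing epithelia, measured 80.3, 58 and 45.3 CPM at E12.5 and 119, 90.3 and 78.3 CPM at E14.5, with each pair higher at E14.5 (log2 fold change 0.66, SE 0.08, adjusted p = 0.000884). Col4a3, a collagen IV chain of mature basement membranes, measured 2.94, 2.75 and 1 CPM at E12.5 and 6.5, 6.56 and 5.94 CPM at E14.5 (log2 fold change 1.57, SE 0.27, adjusted p = 0.00505). Its partner chain gene Col4a5 went from 94.2 ± 33.3 to 149 ± 61 CPM (log2 change 0.65, adjusted p = 0.00241). Nid1, nidogen, rose in the same range, from 246 ± 18.5 to 359.9 ± 19.6 CPM (log2 change 0.55, adjusted p = 0.00565). Lama1, the laminin chain of the earliest basement membranes, was the member that fell, at 37.8, 33.4 and 44.2 CPM at E12.5 and 25, 29.2 and 27.4 CPM at E14.5 (log2 change -0.49, adjusted p = 0.0196). Of 20 proteases and inhibitors 4 rose and 1 fell: Adamts9 had a log2 change of 0.45, adjusted p = 0.00728, and Mmp11 one of -0.36, adjusted p = 0.0222. Called whichever library was absent were Postn, Bgn, Sparc, Vcan, Col3a1, Lox, Fbln2, Fbln5, Egfl6, Npnt, Col4a3, Col4a5, Nid1 and Adamts9, whereas Lama1 and Mmp11 were lost without E12.5 replicate 2, among others, and Ltbp2 without E14.5 replicate 1.

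**Figure D4:**
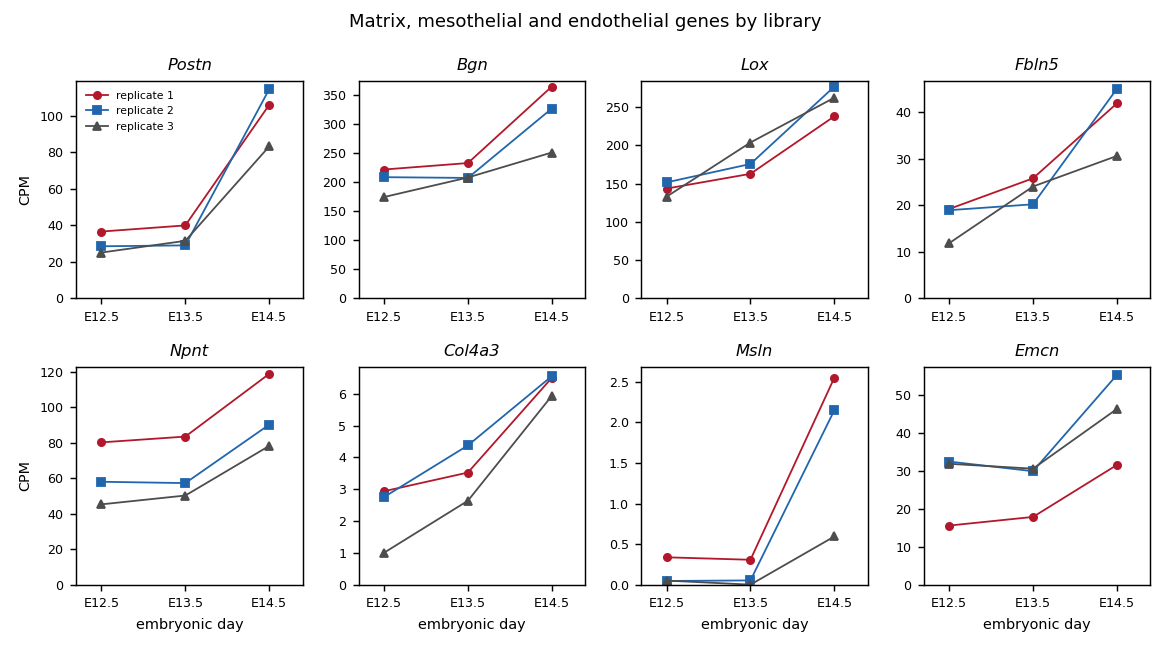
Level in CPM (vertical axes from 0) of 6 matrix genes, the mesothelial gene Msln and the endothelial gene Emcn by stage (E12.5, E13.5, E14.5), with 1 line for each replicate number. Postn, Bgn, Npnt, Msln and Emcn are nearly level to E13.5 and higher at E14.5 in all 3 lines.

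Endothelial genes moved together: all 18 tested had a positive log2 change, 9 passed and the median was 0.46. With each library left out in turn 6 (without E14.5 replicate 3) to 9 passed. Cdh5, the cadherin of endothelial junctions, measured 208, 183 and 154 CPM at E12.5 and 308, 285 and 253 CPM at E14.5 and did not overlap (log2 fold change 0.64, SE 0.09, adjusted p = 0.00197). Eng, a TGF-beta co-receptor of endothelium, measured 74, 41.7 and 31.9 CPM at E12.5 and 113, 72 and 54.4 CPM at E14.5, and the same-numbered pairs rose while replicate 1 of E12.5 stood above replicates 2 and 3 of E14.5 (log2 fold change 0.72, SE 0.11, adjusted p = 0.00381). Emcn, a sialomucin of capillaries and veins, had its low value in replicate 1 at both stages, 15.6, 32.4 and 31.8 and 31.5, 55.2 and 46.3 CPM (log2 change 0.77, adjusted p = 0.00212). Kdr, the main receptor for vascular endothelial growth factor, rose from 127 ± 17.6 to 165 ± 19.4 CPM (log2 change 0.37, adjusted p = 0.0165). Of 8 lymphatic genes 2 rose, Pdpn (log2 change 0.85, adjusted p = 0.00591), which alveolar type 1 cells and mesothelium also express, and Mmrn1 (log2 change 0.60, adjusted p = 0.0312).

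Genes of the vessel wall followed in part. Of 12 pericyte and PDGF genes 6 rose and 1 fell. Pdgfa, a platelet-derived growth factor that epithelium supplies to the mesenchyme, went from 14 ± 1.87 to 22.6 ± 3.32 CPM (log2 fold change 0.70, SE 0.13, adjusted p = 0.00809). Pdgfb, which endothelium makes to recruit pericytes, went from 19.3 ± 9.63 to 28.6 ± 10.6 CPM (log2 change 0.61, adjusted p = 0.0136). Mcam, a mural cell adhesion molecule, and Heyl, a Notch target, had log2 changes of 0.83, adjusted p = 0.012 and 0.51, adjusted p = 0.00995, respectively. Notch3, the Notch receptor of mural cells, was the member that fell (log2 change -0.32, adjusted p = 0.015). Of 15 smooth muscle contractile genes 4 rose and none fell (median 0.49). Tagln, transgelin, measured 44.1, 26.2 and 23.5 CPM at E12.5 and 53.4, 46.3 and 30.3 CPM at E14.5 (log2 change 0.49, adjusted p = 0.0171). Acta2, smooth muscle actin, had a log2 change of 0.96, adjusted p = 0.016. The other called members, Pln and Casq2, handle calcium in heart muscle too and belong also to the striated muscle list. Myocd, the co-activator that switches on smooth muscle genes, measured 31.4, 33.9 and 33.2 CPM at E12.5 and 29.2, 75.5 and 44.3 CPM at E14.5; the pairs numbered 2 and 3 were higher at E14.5 and that numbered 1 was lower, and the gene did not pass (log2 change 0.50, adjusted p = 0.345). Cdh5, Eng, Emcn and Pdpn were called whichever library was absent. Of the 6 cases, Kdr, Mmrn1 and Acta2 were called in 2, Notch3 in 3, Tagln and Heyl in 4, and Pdgfa, Pdgfb and Mcam in 5. The library whose absence lost most of these was E12.5 replicate 2.

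Mesothelial genes rose in 3 of 11 cases and fell in 1 (median log2 change 0.60). Msln, mesothelin, was close to absent at E12.5, with 0.337, 0.0451 and 0.0501 CPM, and reached 2.55, 2.15 and 0.594 CPM (log2 fold change 3.69, SE 0.59, adjusted p = 0.00404). Gpm6a, a membrane glycoprotein, measured 11.5, 13 and 7.37 CPM at E12.5 and 21.8, 52.9 and 46.8 CPM at E14.5 (log2 fold change 1.87, SE 0.30, adjusted p = 0.016). Upk3b, a uroplakin of the mesothelium, measured 77.4, 64.4 and 55.2 CPM at E12.5 and 107, 110.0 and 86.8 CPM at E14.5 (log2 fold change 0.64, SE 0.12, adjusted p = 0.0103). Rspo1, a secreted enhancer of WNT signalling, fell from 25.6 ± 6.72 to 15.6 ± 1.21 CPM (log2 change -0.70, adjusted p = 0.0174). Wt1, the transcription factor of mesothelial progenitors, differed by replicate more than by stage, at 20.6, 51.8 and 70.2 CPM at E12.5 and 21.1, 75.4 and 75.6 CPM at E14.5 (log2 change 0.23, adjusted p = 0.388). Msln was called whichever library was absent, Upk3b was lost without E12.5 replicate 2, Gpm6a without 2 libraries in turn and Rspo1 without 4.

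General epithelial markers were not called, while some genes of later alveolar cells were. Whole-lung RNA does not place those rises in the epithelium. None of 20 pan-epithelial junction and keratin genes passed, although 19 had a positive log2 change (median 0.23). Nkx2-1, the lung epithelial transcription factor, measured 72.9, 87 and 81.4 CPM at E12.5 and 89.8, 88.2 and 108 CPM at E14.5 (log2 fold change 0.25, SE 0.11, adjusted p = 0.155). Of the branching factors at the distal tip 1 of 14 rose, Clu, and 1 fell, Mycn, where over all genes 7.33% rose and 3.63% fell. Sox9, which marks the tips, measured 109, 162 and 213 CPM at E12.5 and 103, 115 and 134 CPM at E14.5 and did not pass (log2 change -0.41, adjusted p = 0.0767). The proximal factor Sox2 measured 12.1 ± 2.44 and 12.6 ± 2.4 CPM (log2 change 0.07, adjusted p = 0.832). Id2 (log2 change -0.10, adjusted p = 0.539) and Gata6 (log2 change 0.25, adjusted p = 0.0847) did not pass either.

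Of 11 alveolar type 1 genes 5 rose (median log2 change 0.85), and of 11 alveolar type 2 and surfactant genes 3 rose (median 0.68). Ctsh, a cathepsin that processes surfactant protein, measured 6.5, 6.86 and 4.71 CPM at E12.5 and 17.2, 15.2 and 13.8 CPM at E14.5 (log2 fold change 1.36, SE 0.14, adjusted p = 0.000604). Hopx, a homeodomain factor of type 1 cells that heart muscle also expresses, measured 1.44, 2.3 and 2.26 CPM at E12.5 and 8.01, 22.5 and 9.23 CPM at E14.5, highest in the same E14.5 library as the striated muscle genes described below (log2 fold change 2.65, SE 0.34, adjusted p = 0.00337). Emp2, a membrane protein of type 1 cells, went from 14.8 ± 3.28 to 32.6 ± 5.25 CPM (log2 change 1.15, adjusted p = 0.000884). Sftpc, the surfactant protein of type 2 cells and distal tips, measured 17.8, 6.68 and 3.21 CPM at E12.5 and 81.9, 10.2 and 6.69 CPM at E14.5; replicate 1 was far above the others at both stages and the gene did not pass (log2 change 1.41, adjusted p = 0.105). Abca3, the lipid transporter of lamellar bodies, was close to the threshold (log2 change 0.41, adjusted p = 0.0465) and did not pass with median-of-ratios size factors or total counts (adjusted p = 0.0562 and 0.0502). Lyz2, which measured 8.96, 6.23 and 4.16 CPM at E12.5 and 19, 15.6 and 13.8 CPM at E14.5, rose (log2 fold change 1.36, SE 0.15, adjusted p = 0.000884); it is shared by type 2 cells and macrophages, whose receptor gene Csf1r did not pass (log2 change 0.47, adjusted p = 0.129).

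Airway cell genes were few and low. Trp63, the basal cell factor, measured 1.25, 1.99 and 0.752 CPM at E12.5 and 2.9, 4.83 and 5.4 CPM at E14.5 (log2 change 1.66, adjusted p = 0.0479). Foxj1, the switch for ciliated cells, stayed under 1 CPM at both stages (log2 change 0.23, adjusted p = 0.79). Calca, a neuroendocrine peptide gene, measured 0.53, 0.406 and 1 CPM at E12.5 and 1.2, 2.94 and 1.94 CPM at E14.5 (log2 change 1.64, adjusted p = 0.0389). Scgb3a2, a secretoglobin of early airway epithelium, went from 1.64, 3.34 and 0.401 to 19.3, 45.4 and 29.4 CPM (log2 fold change 4.09, SE 0.77, adjusted p = 0.042). The calls of Ctsh, Hopx, Emp2 and Lyz2 held whichever library was absent; those of Trp63, Calca, Scgb3a2 and Abca3 were lost in 5 of the 6 cases each.

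A minority of members was called in each signalling list, where over all genes 7.33% rose and 3.63% fell. The BMP list, at 5.56% risen, lay near that share. Without E12.5 replicate 2 no FGF, BMP or Notch gene was called. The number of rises left then was 1 for WNT, 2 for TGF-beta and 1 for IGF. The ligands at the centre of branching did not pass. Fgf10, the mesenchymal growth factor that draws buds outward, measured 46.3, 67 and 55.6 CPM at E12.5 and 47.6, 78.3 and 97.6 CPM at E14.5 (log2 change 0.36, adjusted p = 0.13). Shh, the epithelial hedgehog ligand, measured 57.8, 108 and 108 CPM at E12.5 and 65.9, 114 and 132 CPM at E14.5 (log2 change 0.19, adjusted p = 0.176). Bmp4 measured 43.4, 36.6 and 33.8 CPM at E12.5 and 53.1, 30.5 and 34 CPM at E14.5 (log2 change 0.02, adjusted p = 0.927). Fgf9 had a log2 change of -0.16, adjusted p = 0.361, Wnt2 of 0.16, adjusted p = 0.666 and Wnt7b of -0.27, adjusted p = 0.133. A p above the threshold leaves small changes possible; the SE was 0.09 for Shh and 0.21 for Wnt2.

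Of 18 FGF pathway genes 2 ligands rose and a receptor fell. Fgf1 measured 4.29, 2.03 and 1.15 CPM at E12.5 and 7.31, 7.45 and 5.4 CPM at E14.5 (log2 fold change 1.59, SE 0.29, adjusted p = 0.00677). Fgf7, a mesenchymal ligand for epithelial receptors, went from 0.915, 0.226 and 0.251 to 2.1, 1.89 and 1.46 CPM (log2 change 2.01, adjusted p = 0.0266). Fgfr1 fell from 160.3 ± 8.9 to 128 ± 6.46 CPM (log2 change -0.33, adjusted p = 0.0243). Of 31 WNT genes 5 rose and 3 fell. Rspo2, a secreted WNT enhancer of the lung mesenchyme, measured 54.5, 65.1 and 66.8 CPM at E12.5 and 28.2, 38.8 and 47.6 CPM at E14.5 (log2 fold change -0.72, SE 0.13, adjusted p = 0.00984). Lef1, a transcription factor at the end of the pathway, measured 72, 105 and 129.8 CPM at E12.5 and 48.6, 68.8 and 96.6 CPM at E14.5 (log2 fold change -0.53, SE 0.09, adjusted p = 0.00496). Wif1, a secreted inhibitor that binds WNT ligands, rose from 2.02, 1.76 and 1.15 to 5.1, 4.41 and 4.8 CPM (log2 fold change 1.55, SE 0.27, adjusted p = 0.00594). The receptor gene Fzd4 rose (log2 change 0.51, adjusted p = 0.00844). The third falling member was Rspo1. The other rising members were Fzd1, a further receptor gene (log2 change 0.29, adjusted p = 0.0406), Dkk3, of the Dickkopf family (log2 change 1.58, adjusted p = 0.0338), and Rspo3 (log2 change 0.70, adjusted p = 0.0331), so that secreted enhancers of the R-spondin family stood on both sides.

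Of 13 hedgehog genes Gli2, a transcription factor that relays the signal, fell (log2 change -0.41, adjusted p = 0.0184) and none rose. In the TGF-beta list 4 of 14 rose and 2 fell. Ltbp3, which holds the latent ligand in the matrix, measured 47.9, 37.7 and 30.9 CPM at E12.5 and 60.2, 55.9 and 53 CPM at E14.5 (log2 fold change 0.55, SE 0.10, adjusted p = 0.00638). The receptor gene Tgfbr1 fell from 403 ± 184 to 289 ± 109 CPM (log2 change -0.45, adjusted p = 0.00794) and the repressor gene Skil fell (log2 change -0.37, adjusted p = 0.0472). The other receptor genes of the list rose, Tgfbr2 (log2 change 0.62, adjusted p = 0.0318) and Tgfbr3 (log2 change 0.47, adjusted p = 0.0279). Of 18 BMP genes 1 rose, Bmp5 (log2 change 0.61, adjusted p = 0.0397), which did not pass with GC and length offsets (adjusted p = 0.0755). Of 15 Notch genes 5 rose and 1 fell. Nrarp, a feedback target, measured 15.4, 11.2 and 10.9 CPM at E12.5 and 23.6, 21.7 and 16.4 CPM at E14.5 (log2 fold change 0.72, SE 0.13, adjusted p = 0.00679). The ligand gene Jag2 had a log2 change of 0.78, adjusted p = 0.0171. Of 13 retinoic acid genes 2 fell. Crabp2, an intracellular carrier, measured 14.4, 16.5 and 22.9 CPM at E12.5 and 6.96, 5.3 and 6.26 CPM at E14.5 (log2 fold change -1.55, SE 0.25, adjusted p = 0.00743). Rarb, a receptor that is itself a target, measured 54.6, 65 and 73.1 CPM at E12.5 and 39, 49.4 and 47.3 CPM at E14.5 (log2 fold change -0.51, SE 0.09, adjusted p = 0.00496). Of 13 IGF genes 3 rose and 1 fell, with Igf1 at 119, 200.4 and 246 CPM at E12.5 and 157, 372 and 304 CPM at E14.5 (log2 change 0.53, adjusted p = 0.0112), while Igf2 (log2 change 0.07, adjusted p = 0.608) and the neighbouring H19 (log2 change -0.14, adjusted p = 0.61) did not pass. Rspo2, Lef1, Wif1, Ltbp3, Rarb and Igf1 were called whichever library was absent. Fgf1, Fzd4, Nrarp and Crabp2 were lost only without E12.5 replicate 2, and Tgfbr1 only without E14.5 replicate 3. Of the 6 cases, Dkk3 and Jag2 were called in 3, and Rspo1, Rspo3, Gli2, Tgfbr2, Tgfbr3, Skil and Bmp5 in 2. Fgf7 and Fgfr1 were called in 1 case and Fzd1 in none.

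Among transcription factors of the mesenchyme and of body position a few members were called, for the Hox genes only falls. Of 18 mesenchyme factors 3 fell and 2 rose (median log2 change -0.22), and of 19 Hox genes 4 fell and none rose (median -0.29). Over all genes 3.63% fell and 7.33% rose. With each library left out in turn 1 to 7 mesenchyme factors fell and 0 to 3 rose. For the Hox genes 1 to 7 fell. Foxp4, a forkhead repressor of epithelium and mesenchyme, measured 189, 159 and 210.0 CPM at E12.5 and 125, 93.9 and 108 CPM at E14.5 (log2 fold change -0.78, SE 0.11, adjusted p = 0.0028). Tbx5, which starts lung outgrowth with Tbx4, measured 133, 199 and 255 CPM at E12.5 and 109, 162 and 186 CPM at E14.5 (log2 fold change -0.35, SE 0.07, adjusted p = 0.0101). Tbx4 had means of 91.7 ± 69.8 and 90.3 ± 60.7 CPM (log2 change 0.03, adjusted p = 0.869). Foxf1, the hedgehog-dependent mesenchymal factor, did not pass (log2 change -0.27, adjusted p = 0.113). Its relative Foxf2 rose (log2 change 0.53, adjusted p = 0.0487) but not with median-of-ratios size factors or total counts (adjusted p = 0.0509 and 0.0508). Meox2, a homeobox factor of vessels and muscle precursors, measured 22, 15.4 and 7.77 CPM at E12.5 and 44.6, 26.8 and 28.7 CPM at E14.5 (log2 fold change 1.19, SE 0.22, adjusted p = 0.014). Hoxc4 measured 3.08, 9.84 and 14.4 CPM at E12.5 and 1.85, 3.25 and 3.78 CPM at E14.5 (log2 fold change -1.50, SE 0.24, adjusted p = 0.00431). Hoxc5 measured 2.12, 4.24 and 7.12 CPM at E12.5 and 1.15, 1.15 and 1.13 CPM at E14.5 (log2 fold change -1.85, SE 0.33, adjusted p = 0.00629). Hoxb4 (log2 change -0.45, adjusted p = 0.0166) and Hoxb3 (log2 change -0.29, adjusted p = 0.0393) fell too. In the cartilage list Col2a1, the cartilage collagen, fell from 116, 68.8 and 61.1 to 88.8, 44 and 46.5 CPM (log2 fold change -0.48, SE 0.08, adjusted p = 0.00627). Hapln1, which links hyaluronan to proteoglycan, rose (log2 change 0.65, adjusted p = 0.00907). Foxp4, Hoxc4 and Col2a1 were called whichever library was absent. Tbx5 and Meox2 were lost in 2 cases each, Hoxc5 and Hapln1 without E12.5 replicate 2, Hoxb4 in 3 cases, and Foxf2 and Hoxb3 in 5.

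Red cell genes fell in 8 of 23 cases (median log2 change -0.61), and the 3 embryonic globin genes were lower at E14.5 without passing. Embryonic globins belong to the primitive red cells of the yolk sac, which later generations of cells replace. The adult globin genes Hba-a1, Hba-a2, Hbb-b1 and Hbb-b2 had no count in any fresh library, and Hbb-bt was not among the genes counted. Such a replacement could therefore not be followed here. Hbb-bh1 measured 60.7, 178 and 305 CPM at E12.5 and 8.51, 6.24 and 15.3 CPM at E14.5 (log2 fold change -4.12, SE 0.82, adjusted p = 0.0538). Hba-x had means of 409.9 ± 237 and 81.6 ± 45.9 CPM (log2 change -2.30, adjusted p = 0.0695) and Hbb-y of 2418 ± 358 and 902 ± 423 CPM (log2 change -1.49, adjusted p = 0.0776). Their stages did not overlap, and their share of the counts was 0.302% ± 0.0253 at E12.5 and 0.0995% ± 0.0461 at E14.5 (SD, n = 3; exact two-sided permutation p = 0.1, the smallest possible). Ermap, a red cell membrane protein, measured 3.52, 10.9 and 25 CPM at E12.5 and 0.701, 1.05 and 2.27 CPM at E14.5 (log2 fold change -3.15, SE 0.40, adjusted p = 0.00404), without overlap, and was called whichever library was absent. Slc4a1, the anion exchanger of the red cell membrane, measured 52.2, 112 and 219 CPM at E12.5 and 16.1, 16.3 and 46.2 CPM at E14.5 (log2 change -2.24, adjusted p = 0.0422). The blood group genes Rhag (log2 change -2.98, adjusted p = 0.0101) and Kel (log2 change -2.59, adjusted p = 0.0343) fell as well. The calls of Slc4a1 and Kel were lost in 5 of the 6 cases and that of Rhag in 2. Gata1, the master regulator of red cells, measured 0.963, 1.53 and 3.56 CPM at E12.5 and 0.25, 0.157 and 0.81 CPM at E14.5 (log2 change -2.33, adjusted p = 0.0163). Nfe2, a globin gene activator, measured 1.01, 5.73 and 9.07 CPM at E12.5 and 0.4, 1.15 and 2.16 CPM at E14.5 (log2 change -1.99, adjusted p = 0.00768). Both were highest in E12.5 replicate 3. Aqp1, a water channel of red cells and of endothelium, was the member that rose, at 16.6, 13.9 and 6.51 CPM at E12.5 and 28.3, 33.9 and 32.4 CPM at E14.5 (log2 fold change 1.39, SE 0.30, adjusted p = 0.0343). Blood content of the pools was not recorded in the labels, and its part in the other results was not tested. Gata1 was called in 2 of the 6 cases and Aqp1 in 3. Both were lost without E12.5 replicate 2, as was Nfe2, which was lost in that case only. That setting left 1 of the 8 falls, Ermap, and with each library left out in turn 1 to 13 of the 23 genes fell.

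Of 18 leukocyte genes only Lyz2 rose and none fell (median 0.31), and of 20 genes of airway neurons and glia 1 rose and 1 fell (median -0.33). Over all genes 7.33% rose and 3.63% fell, and neither list stood out from these shares. Gfra1, a co-receptor for a glial growth factor, measured 40.9, 51.7 and 70.6 CPM at E12.5 and 26.7, 29.9 and 33.7 CPM at E14.5 (log2 fold change -0.83, SE 0.10, adjusted p = 0.00148). Its relative Gfra2 moved the other way, at 11.3, 11.2 and 6.87 CPM at E12.5 and 31.1, 25.5 and 21.3 CPM at E14.5 (log2 fold change 1.41, SE 0.14, adjusted p = 0.000516). Both held whichever library was absent. Stmn2, a growth cone protein of neurons, rose (log2 change 0.66, adjusted p = 0.0117), a call lost without 3 of the 6 libraries in turn. Of 20 netrin, Slit and semaphorin guidance genes 3 rose and 1 fell, and Slit2, a secreted cue, measured 77.2, 76.5 and 70.7 CPM at E12.5 and 129.6, 136 and 121 CPM at E14.5 (log2 fold change 0.78, SE 0.12, adjusted p = 0.00404).

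The largest rises belonged to striated muscle. Of 28 tested genes of heart and striated muscle 20 rose and none fell, with a median log2 change of 4.93, or 4.89 with Myl2 and Sln, which had no count at E12.5, set to the bound that 3 counts over the E12.5 libraries give. With each library left out in turn 8 (without E12.5 replicate 2) to 20 rose. The whole list took 0.00892% ± 0.00390 of the counts at E12.5 and 0.197% ± 0.141 at E14.5 (SD, n = 3; exact two-sided permutation p = 0.1, the smallest possible). The summed levels of 7 defining heart and striated muscle genes ran from 11.7 to 81.7 CPM at E12.5 and from 592 to 2447 CPM at E14.5. Heart muscle genes are expressed in the heart and, in mice, also in the muscle sleeve of the pulmonary veins; which of these the pools held the labels do not say, and it was not tested.

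Nppa, the atrial natriuretic peptide gene, had 2 counts over the whole of E12.5 and measured 55.6, 125 and 24.6 CPM at E14.5. Nkx2-5, the heart progenitor factor, went from 0.241, 0.226 and 0.251 to 4.05, 13 and 3.24 CPM (log2 fold change 4.64, SE 0.47, adjusted p = 0.000604). Myl7, the atrial myosin light chain, measured 4.14, 1.94 and 1.65 CPM at E12.5 and 48.4, 63.6 and 14.6 CPM at E14.5 (log2 fold change 4.04, SE 0.69, adjusted p = 0.0326). All 3 genes were highest in E14.5 replicate 2 and lowest in E14.5 replicate 3. Actc1, cardiac actin, had the same order of E14.5 libraries, at 54.4, 32 and 6.77 CPM at E12.5 and 430.1, 1373 and 357 CPM at E14.5; its pairs differed widely in size and it did not pass (log2 fold change 4.62, SE 0.91, adjusted p = 0.0535). Acta1, skeletal muscle actin, measured 0.626, 0.0903 and 0.451 CPM at E12.5 and 5.65, 19 and 4.7 CPM at E14.5 (log2 change 4.42, adjusted p = 0.00849). Myh3, the embryonic skeletal myosin, measured 0.193, 0.0903 and 0.1 CPM at E12.5 and 4.85, 3.73 and 2.11 CPM at E14.5 (log2 fold change 4.75, SE 0.41, adjusted p = 0.000232). Myl2, the ventricular light chain, had 0 counts at E12.5 and 38 at E14.5, and Sln, the atrial sarcolipin gene, 0 and 127. Nkx2-5, Myh3, Myl1 and Pln were called whichever library was absent, Nppa was lost without E12.5 replicate 1, and Actn2, Tnnc1 and Ldb3 were lost in 4 of the 6 cases.

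Promoter sequence is shown for 3 of these genes, to give the letters of a muscle gene element where the search found it. The CArG box, the element that serum response factor binds, given here by its name alone, was searched on both strands of the 300-base RefSeq promoter windows (GRCm38.p6). It was present in 4 of 25 matched striated muscle genes that were tested (16.0%), or in 5 of 29 with the members of too low count to be tested, in none of 11 smooth muscle genes and in 1.58% of 10448 tested genes. Windows of 70 bases follow with the box in capitals, for Myl7 (chr11:5898804-5898873, minus strand, box 61 bases before the start), Actc1 (chr2:114052883-114052952, minus strand, 47 bases before) and Acta1 (chr8:123894809-123894878, minus strand, 73 bases before).
Myl7: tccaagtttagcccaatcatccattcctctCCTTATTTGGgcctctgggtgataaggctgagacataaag
Actc1: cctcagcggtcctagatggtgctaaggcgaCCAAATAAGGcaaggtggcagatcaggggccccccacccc
Acta1: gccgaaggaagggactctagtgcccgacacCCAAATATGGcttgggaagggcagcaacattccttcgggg
The other genes with the box were Ldb3, which codes for a Z-disc protein, and, among those not tested, Myl3, a myosin light chain gene. A match describes these letters only, and a window without one says nothing of the factor.

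**Figure D5:**
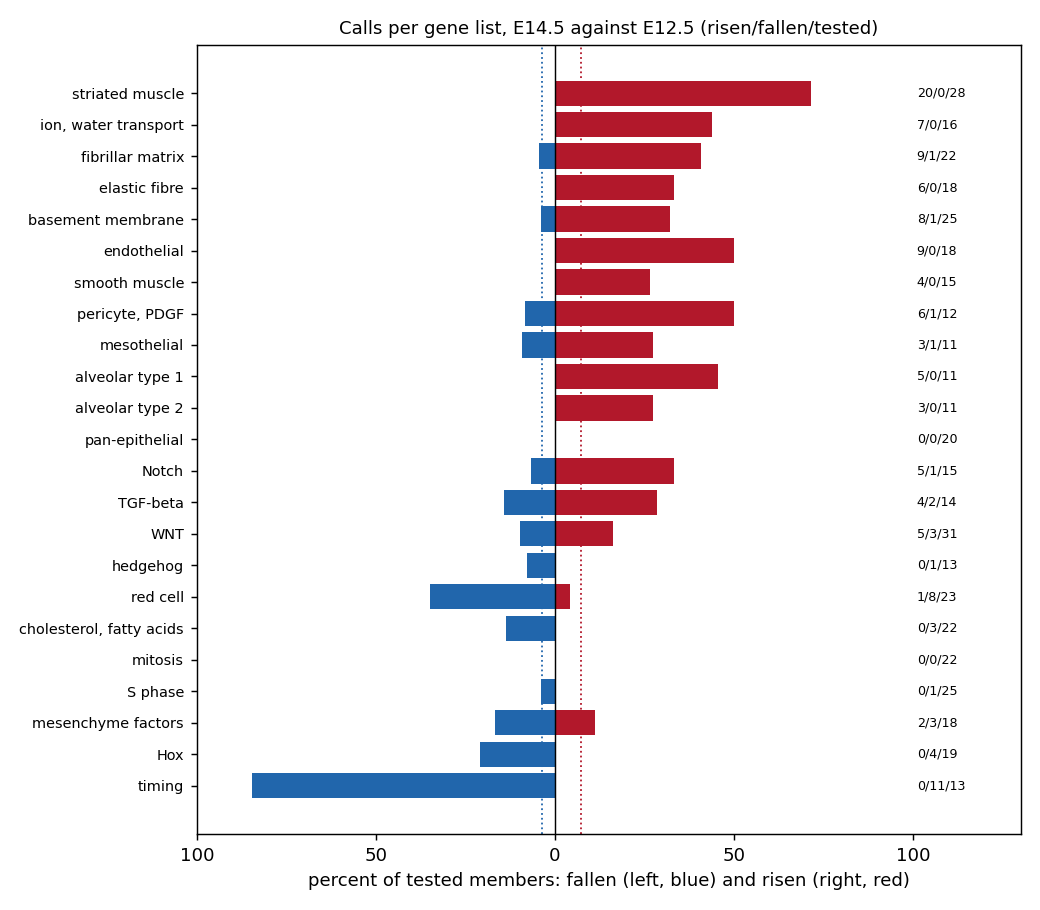
Percent of tested members that fell (blue, left) and rose (red, right) between E12.5 and E14.5 for 23 gene lists, with the counts risen, fallen and tested at the right; dotted lines mark the shares over all genes, 3.63% and 7.33%. The timing list has the longest bar to the left and the striated muscle list the longest to the right.

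Few proliferation genes passed. Over all genes 3.63% fell and 7.33% rose, and the S phase list, at 4% fallen, lay near that share. Of 25 S phase genes 1 fell, Ccne1, which codes for the cyclin that starts replication, at 119, 76.4 and 72.3 CPM at E12.5 and 96.6, 54.7 and 54 CPM at E14.5 (log2 fold change -0.40, SE 0.08, adjusted p = 0.00844). Of the 25, 22 had a negative log2 change (median -0.16). None of 22 mitosis genes passed (median -0.04). Of 18 cell cycle inhibitor and p53 target genes 5 rose. Cdkn2c, an inhibitor of the early cell cycle kinases, measured 3.32, 5.37 and 5.51 CPM at E12.5 and 5.15, 11.6 and 11.2 CPM at E14.5 (log2 fold change 0.93, SE 0.17, adjusted p = 0.00637). Cdkn1b had a log2 change of 0.33, adjusted p = 0.0163, and Ccng1, a p53 target, one of 0.66, adjusted p = 0.00808. The calls of Ccne1 and Ccng1 held whichever library was absent, and that of Cdkn2c was lost without E12.5 replicate 2.

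Of 22 cholesterol and fatty acid synthesis genes 3 fell, and all 22 had a negative log2 change (median -0.24). Scd1, the stearoyl-CoA desaturase, measured 37.5, 61.3 and 87.2 CPM at E12.5 and 25.7, 33.4 and 40.9 CPM at E14.5 (log2 fold change -0.85, SE 0.12, adjusted p = 0.0031). Fasn, fatty acid synthase, measured 303, 259 and 289 CPM at E12.5 and 245, 206 and 199.7 CPM at E14.5 (log2 fold change -0.39, SE 0.07, adjusted p = 0.00591). Srebf2, the factor that activates cholesterol synthesis, fell (log2 change -0.25, adjusted p = 0.0411). Among 21 glycolysis and hypoxia genes 3 rose and 1 fell. Hk2, the hexokinase of embryonic and dividing cells, measured 134, 135 and 131 CPM at E12.5 and 107, 97.1 and 103 CPM at E14.5 (log2 fold change -0.38, SE 0.07, adjusted p = 0.00616). Hk1, the hexokinase of most adult tissues, rose and was close to the threshold (log2 change 0.47, adjusted p = 0.0422). Hk1 did not pass with median-of-ratios size factors (adjusted p = 0.0526). Of 28 nuclear subunit genes of oxidative phosphorylation 1 rose (3.57%, against 7.33% over all genes).

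Of 16 ion and water transport genes 7 rose and none fell (median log2 change 0.64). Piezo2, a stretch-gated channel, measured 57.6, 71.7 and 71.5 CPM at E12.5 and 75.4, 130.5 and 116 CPM at E14.5 (log2 fold change 0.65, SE 0.09, adjusted p = 0.00267). Ano1, a chloride channel of secreting epithelium and smooth muscle, measured 47.6, 58.3 and 49.9 CPM at E12.5 and 69, 77.5 and 76 CPM at E14.5 (log2 fold change 0.52, SE 0.09, adjusted p = 0.00489). Atp1b1, a subunit of the sodium pump, measured 33.1, 30.7 and 24.7 CPM at E12.5 and 68.1, 148 and 84.3 CPM at E14.5, with its high value in the E14.5 library that was also highest in striated muscle genes (log2 change 1.72, adjusted p = 0.0263). Of 18 immediate early genes, which respond to stimuli within minutes and also to handling of tissue, 6 rose. Egr1 measured 7.71, 10.7 and 9.72 CPM at E12.5 and 10.7, 19 and 22.6 CPM at E14.5 (log2 fold change 0.85, SE 0.15, adjusted p = 0.00587). Zfp36 measured 6.98, 9.48 and 10.6 CPM at E12.5 and 11.2, 15.9 and 18.5 CPM at E14.5 (log2 fold change 0.75, SE 0.12, adjusted p = 0.00404). Of 13 interferon and MHC class I genes 3 rose. Tapbp, which loads peptides on class I molecules, measured 16, 13 and 14.9 CPM at E12.5 and 28.4, 23.1 and 23.7 CPM at E14.5 (log2 fold change 0.78, SE 0.10, adjusted p = 0.00201). B2m, their light chain, measured 71.2, 47.3 and 37 CPM at E12.5 and 97.8, 58.3 and 55.6 CPM at E14.5 (log2 change 0.45, adjusted p = 0.00629). Piezo2, Ano1, Scd1, Fasn, Hk2, Egr1, Zfp36, Tapbp and B2m were called whichever library was absent.

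Several genes outside these lists were among the 10 risen genes with the smallest p-values. The others of the 10 included Sepp1, a selenium transport protein gene (log2 change 0.91, adjusted p = 0.000232), and Col1a1, the main fibrillar collagen gene (log2 change 0.91, adjusted p = 0.00048). Sspn, a member of the dystrophin complex of muscle membranes, measured 13.6, 11.4 and 8.37 CPM at E12.5 and 48.8, 55.5 and 26.3 CPM at E14.5 (log2 fold change 1.94, SE 0.15, adjusted p = 0.000232). Fhl1, a LIM-domain protein of muscle, measured 113, 109 and 79.4 CPM at E12.5 and 221, 232 and 204 CPM at E14.5 (log2 fold change 1.13, SE 0.09, adjusted p = 0.000232). Perp, a protein of epithelial desmosomes, measured 2.02, 5.51 and 3.86 CPM at E12.5 and 10.9, 39.2 and 20 CPM at E14.5, with all pairs several-fold higher (log2 fold change 2.58, SE 0.21, adjusted p = 0.000232). Vcam1, an adhesion molecule of mesenchyme and activated endothelium, measured 78.1, 64.3 and 49.8 CPM at E12.5 and 145, 125 and 89.5 CPM at E14.5 (log2 fold change 0.90, SE 0.09, adjusted p = 0.000594). The rises of Sspn, Fhl1, Perp and Vcam1 did not overlap between stages and held whichever library was absent.

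Of the 10 fallen genes with the smallest p-values, Igf2bp1 and Gfra1 are described above. Cbx2, a Polycomb protein that binds methylated histone tails, measured 103, 113 and 116 CPM at E12.5 and 70.6, 60.1 and 61.4 CPM at E14.5 (log2 fold change -0.79, SE 0.09, adjusted p = 0.000884). Rcor2, a co-repressor of neural genes, went from 54.9, 25.8 and 24.1 to 37.7, 12.9 and 13.2 CPM (log2 change -0.80, adjusted p = 0.00204). Zfp462, a zinc finger protein of embryonic chromatin, fell from 239 ± 56.9 to 163 ± 38 CPM (log2 change -0.55, adjusted p = 0.00195). Auts2, which works with Polycomb proteins in neurons, measured 70.9, 63.1 and 69.5 CPM at E12.5 and 41.8, 43.1 and 43.7 CPM at E14.5, 3 tight values at each stage (log2 fold change -0.66, SE 0.09, adjusted p = 0.00201). Sept3, a septin of neurons, had a log2 change of -0.97, adjusted p = 0.000884, and Dpysl4, a growth cone protein, one of -1.22, adjusted p = 0.000884. B4galnt4, a glycosyltransferase gene, and Fndc3c1, a fibronectin type III domain gene, had log2 changes of -0.69, adjusted p = 0.000884 and -0.78, adjusted p = 0.000884. Among the 10 largest falls Astn1, an adhesion protein of migrating neurons, fell from 13.6, 35.1 and 59.4 to 4.3, 12.7 and 13.6 CPM (log2 fold change -1.77, SE 0.24, adjusted p = 0.00632). All 9 were called whichever library was absent.

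Of the 5 most abundant genes that rose and the 5 that fell, Hmga2 (log2 change -1.60) and Col3a1 (0.59), both described above, had the largest changes in size. Nrep (log2 change 0.30, adjusted p = 0.0344) and Dhx9 (log2 change -0.25, adjusted p = 0.0471) were among the others. Hmgn2, a nucleosome-binding protein, measured 1328, 3892 and 5664 CPM at E12.5 and 1453, 6000.2 and 7268 CPM at E14.5, with replicate 1 far below the others at both stages (log2 fold change 0.37, SE 0.10, adjusted p = 0.0408). It did not pass with median-of-ratios size factors or GC and length offsets (adjusted p = 0.0606 and 0.129). Rps2, a ribosomal protein gene with a log2 change of 0.29, adjusted p = 0.046, passed under neither of these nor with total counts (adjusted p = 0.0639, 0.0553 and 0.0570). Mest, an imprinted gene of mesoderm, rose from 1431 ± 459.6 to 1875 ± 525 CPM (log2 change 0.40, adjusted p = 0.0181). By contrast 2 other imprinted genes fell, Peg3 (log2 change -0.51, adjusted p = 0.0316) and Peg10 (log2 change -0.65, adjusted p = 0.0031). Hsp90aa1, a chaperone, and Nap1l1, a histone chaperone, fell with log2 changes of -0.28, adjusted p = 0.0197 and -0.29, adjusted p = 0.041. Peg10 was called whichever library was absent. Nrep, Dhx9, Hmgn2, Rps2, Mest, Peg3, Hsp90aa1 and Nap1l1 were lost in 3 to 5 of the 6 cases.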

How the data were processed

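Total RNA of pooled fresh lungs was sequenced at the 3 stages (3 libraries each). The deposited table holds raw counts per gene symbol; per the submitters' processing notes, cutadapt, Bowtie, TopHat and HTSeq were used with build mm10, and neither the strand setting nor the annotation of the counting is stated. Genes that overlap or have near-identical copies may therefore share reads.

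The 9 fresh libraries were fitted in 1 edgeR model (4.0.16, R 4.3.3) with TMM scaling, its default low count filter by stage (9178 of 23420 genes left out), stage and replicate number as terms and robust quasi-likelihood F-tests, leaving 4 residual degrees of freedom. Calls are at an adjusted p under 0.05 (Benjamini-Hochberg over 14242 genes), and SE is the log2 change over the square root of F. The block was used because replicate 1 of every stage stood apart in an earlier analysis of these data. Deviations from the stage means correlated in all 9 same-numbered pairs (r from 0.490 to 0.880, other pairs -0.794 to 0.704). With replicate 1 apart, replicates 2 and 3 of a stage tend to deviate together. They correlated across numbers too (r from 0.525 to 0.704), so a pairing by number beyond replicate 1 was not shown. The labels do not say what a number marks or that pools came from separate litters. The p-values measure the spread between these pools that is left after stage and number are fitted. They do not measure the full spread between pools, against which edgeR and limma-voom called no gene. No libraries agreed within sampling noise.

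On simulated counts for 14129 genes with 200 changed between E14.5 and E12.5, the model called 83% of 2-fold and 90% of 4-fold changes, with 19 false among 192 calls. Gene positions and 3′ UTRs are from GENCODE M21 (mm10), in which 21777 of 23420 symbols matched directly and 1260 through a synonym.

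The comparison and the gene lists were chosen with earlier results of these data known. Genes were named by rule: the 10 largest changes each way among called genes of at least 5 CPM without overlap, the 10 smallest p-values each way, the 5 most abundant each way, up to 4 members of each list by p, members called against their list, and a set of lung genes whatever their values. Further members (Trim71, Igf2bp3, Hmga1, Plagl1, Arid3b, Fzd1, Dkk3, Rspo3, Tgfbr2, Myl2, Sln, Myl7, Actc1 and Acta1 among them) were added after their values were seen. Kdr stood in the club cell list by mistake as well as in the endothelial list; only the latter's count is given. Alternatives were other scalings, filters, tools (DESeq2 1.42.0, limma 3.58.1), GC and length offsets, fits without the block and fits without libraries; those with DESeq2 or limma-voom and no block were added after the data were seen.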

Additional observations from a re-analysis of the deposited data

Results flagged for a closer look

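For 3 genes the change on the second day differed from that on the first in the test of the difference itself (edgeR, adjusted p under 0.05 over 14242 genes). Ifi204, an interferon-inducible gene, measured 0.144, 2.66 and 6.92 CPM at E12.5, 0, 0 and 0.0489 CPM at E13.5 and 0.1, 3.78 and 2.97 CPM at E14.5, a second-day minus first-day log2 change of 13.80. It is 1 of a cluster of near-identical genes whose reads can be split between copies, and the E13.5 level rests on at most 1 count per library, so its size is not a measured fold. Ildr2, an immunoglobulin-like receptor gene, measured 4.14, 7.85 and 10.9 CPM at E12.5, 2.4, 4.69 and 7.04 CPM at E13.5 and 8.16, 24.4 and 19.4 CPM at E14.5, a difference of 2.59. Strip2, a phosphatase-complex gene, measured 0.819, 0.948 and 0.601 CPM at E12.5, 0.204, 0.313 and 0.244 CPM at E13.5 and 2.55, 8.97 and 4.16 CPM at E14.5, a difference of 5.88. In each replicate number all 3 were lowest at E13.5.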

How the results depend on the processing

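No called gene changed sign under any of 21 alternatives. Without the replicate block, edgeR and limma-voom each called 0 genes (0 risen, 0 fallen, 0 at 2-fold or more, 0 between the days), with unadjusted p under 0.05 for 1328 and 1342, and DESeq2 called 491 (370 risen, 121 fallen). A term for replicate 1 in place of the block gave 1592 calls, 1445 of them shared, and 2 between the days; replicates 2 and 3 of different stages also correlated across numbers (r from 0.525 to 0.704). With the block, DESeq2 called 1819 and limma-voom 1785. The fit to the 6 libraries alone gave 324 fallen genes, and GC and length offsets, made from 99.2% of the genes, gave 2911 calls with 1820 fallen; the causes were not tested. The test between the days called 1 gene with median-of-ratios size factors, 1 with a minimum of 1 CPM, 9 without a filter, 50 by DESeq2 and 0 by limma-voom.

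Leaving out libraries or replicate numbers, which also removes samples, gave 314 to 1977 calls, 212 to 1235 risen, 102 to 742 fallen, 153 to 593 of at least 2-fold and 0 to 94 between the days. The low ends came without replicate 2 of all stages. Of 176 called genes named by rule or in the timing list, 75 were called whichever single library was absent. With single libraries absent the genes that rose numbered 4 to 10 for basement membrane, 1 to 10 for smooth muscle, 1 to 5 for pericytes and 2 to 7 for ion transport. The medians of several lists lay near 0 and changed sign in some settings: BMP in 11, liver in 8, distal tip in 5. The simulation held changes of 2-fold and 4-fold only, so the detection of smaller ones was not tested.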
